A study of Mus musculus with 3 samples.

Results

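Semaphorins are guidance ligands, and plexins and neuropilins are their main receptors. The 31 genes described here were taken by symbol from a table of 39377 genes: every Sema gene named by a number and a letter (20 genes), the plexin genes of groups A to D (9 genes), and Nrp1 and Nrp2. The rule uses symbols only. Levels come from whole hippocampus of wild-type (WT) C57BL/6 mice at postnatal day 14, sequenced as total RNA in 3 libraries that form 1 group, with no allele or agent besides. Nothing in the labels ties a library to an animal of its own, so every spread and p-value below measures differences between these libraries, which may be technical. The values are FPKM, fragment counts scaled to transcript length and to library size, and each ± gives the SD (n = 3 libraries). Effects of transcript length, GC content and mappability that repeat in every library enter neither an SD nor a p-value. To allow for them, the main tests below ask for more than a 2-fold difference, and whether that is enough was not tested. Since all libraries share 1 condition, genes were compared with each other inside the same library.

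Most semaphorins signal through plexins, whose cytoplasmic part acts on small GTPases and so on the cytoskeleton of axons and dendrites. Class 3 semaphorins are secreted and mostly need a neuropilin as the binding subunit beside a plexin of group A, classes 4, 5 and 6 span the membrane, and the class 7 member is held by a lipid (GPI) anchor. In the hippocampus the system is known for laminating the mossy fibres, for pruning axons and for restricting spines on granule and pyramidal neurons.

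The sequence before the transcription start is shown for 4 genes, a pair of ligand and receptor couples whose ligands lie near opposite ends of the family. Sema7a, the highest ligand, is shown with its receptor gene Plxnc1. Nrp1, the highest neuropilin, is shown with its classical ligand gene Sema3a, which is near the bottom. Each line holds the 250 bases before the RefSeq start on GRCm38.p6, in the direction of the gene, with CpG dinucleotides in capitals.
Sema7a: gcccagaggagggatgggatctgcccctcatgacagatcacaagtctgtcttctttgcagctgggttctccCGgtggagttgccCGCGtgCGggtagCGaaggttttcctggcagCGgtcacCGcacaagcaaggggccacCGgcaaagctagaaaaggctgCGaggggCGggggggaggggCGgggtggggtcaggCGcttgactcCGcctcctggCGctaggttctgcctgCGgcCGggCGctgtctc
Plxnc1: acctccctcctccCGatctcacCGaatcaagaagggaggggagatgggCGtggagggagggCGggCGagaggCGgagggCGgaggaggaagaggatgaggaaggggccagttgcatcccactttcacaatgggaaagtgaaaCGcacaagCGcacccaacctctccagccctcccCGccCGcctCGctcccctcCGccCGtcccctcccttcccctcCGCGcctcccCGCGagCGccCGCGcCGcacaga
Nrp1: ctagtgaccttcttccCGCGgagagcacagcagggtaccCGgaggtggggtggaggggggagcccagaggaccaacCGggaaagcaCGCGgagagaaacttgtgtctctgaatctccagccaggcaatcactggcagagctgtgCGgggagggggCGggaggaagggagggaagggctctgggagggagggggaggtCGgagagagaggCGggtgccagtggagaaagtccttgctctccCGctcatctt
Sema3a: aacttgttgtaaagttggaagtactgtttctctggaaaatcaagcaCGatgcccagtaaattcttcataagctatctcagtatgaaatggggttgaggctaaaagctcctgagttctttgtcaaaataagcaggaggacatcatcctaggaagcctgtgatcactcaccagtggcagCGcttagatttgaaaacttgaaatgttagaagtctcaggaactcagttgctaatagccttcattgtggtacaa
The Sema7a window lies at chr9:57939862-57940111 on the plus strand and holds 17 CpG. The Plxnc1 window, chr10:94944846-94945095 on the minus strand, holds 22, the Nrp1 window, chr8:128358823-128359072 on the plus strand, holds 11, and the Sema3a window, chr5:13396534-13396783 on the plus strand, holds 2. The Nrp1 and Sema3a windows lie inside the wider gene span of GENCODE, outside its exons, because that annotation also has starts further upstream.

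The highest levels belonged to membrane-bound ligands. Sema7a, whose product binds plexin C1 and integrin beta 1, stood at 37.06, 39.97 and 36.59 FPKM in libraries 1, 2 and 3 (37.9 ± 1.83). Sema6b, a class 6 ligand of group A plexins, stood at 31.83, 28.46 and 30.52 FPKM (30.3 ± 1.70). Sema4d, a class 4 ligand of plexin B1 that oligodendrocytes are known to make, stood at 24.89, 22.35 and 28.95 FPKM (25.4 ± 3.33). These 3 genes held the first 3 places in every library and made up 44.8% ± 2.26 of the summed FPKM of the 20 semaphorins. The values of Sema7a did not overlap those of Sema6b, whereas those of Sema6b and Sema4d overlapped.

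**Figure D1:**
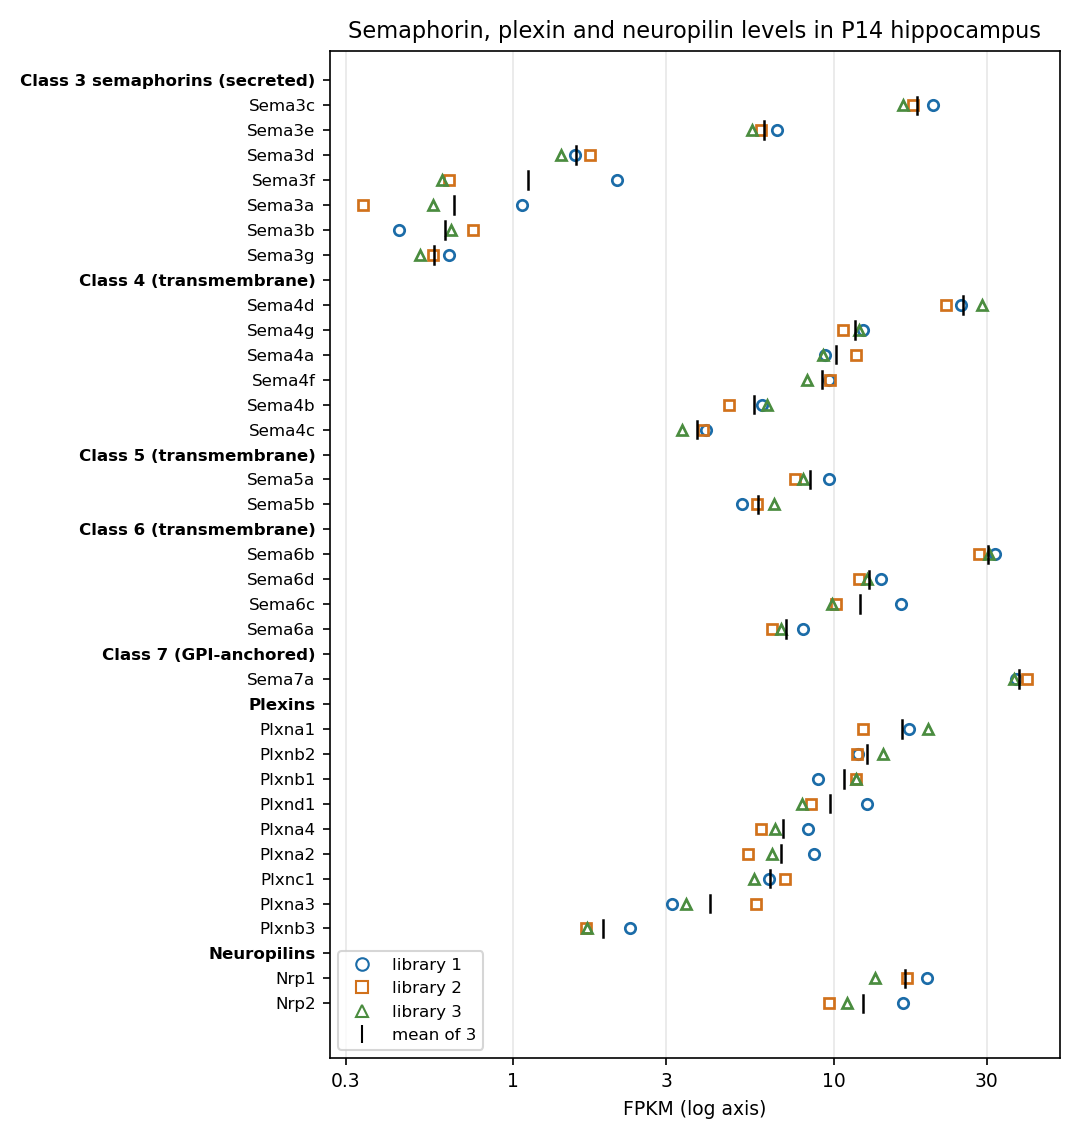
FPKM of the 31 genes on a log axis, 1 row per gene, grouped by class, with 1 symbol per library and a black tick at the mean of 3. Class 3 semaphorins spread from 0.567 to 18.2 FPKM, while Sema7a, Sema6b and Sema4d lie to the right of every receptor by their means.

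Among class 3 semaphorins, which are secreted and can act at a distance, a single gene carried most of the level. Sema3c was at 20.36, 17.71 and 16.48 FPKM (18.2 ± 1.98) and accounted for 63.4% ± 1.15 of the class sum. Sema3e, the ligand that binds plexin D1 without a neuropilin, followed at 6.67, 5.94 and 5.54 FPKM (6.05 ± 0.573), and the pair together held 84.5% ± 1.83. The other 5 members had means between 0.567 and 1.57 FPKM.

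Sema3d stood at 1.56, 1.73 and 1.41 FPKM. Sema3f, the ligand of neuropilin 2, was at 2.10, 0.63 and 0.60 FPKM, so that library 1 lay well above the other libraries. Sema3a, the collapsing factor first known as a repellent of sensory axons, was at 1.06, 0.34 and 0.56 FPKM. Sema3b, which also uses neuropilins, was at 0.44, 0.75 and 0.64 FPKM, and Sema3g at 0.63, 0.56 and 0.51 FPKM. The ranges of Sema3a, Sema3b and Sema3g overlapped, and their order was not resolved.

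These low values rested on few fragments. Low FPKM values fall on steps that show the worth of 1 fragment, and these put the depth at about 3690000, 4140000 and 6020000 fragments in libraries 1, 2 and 3. With the longest coding transcript as the length, Sema3f then corresponded to about 24, 8 and 11 fragments, Sema3a to 22, 8 and 19, Sema3b to 5, 10 and 12, and Sema3g to 10, 10 and 13. Over the 31 genes and 3 libraries the median was 223 fragments and the highest value 1036. Fragment numbers bear on counting error alone: no molecular identifiers mark which fragments are copies of 1 molecule.

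Position in the genome is shared by several of the secreted ligands. In GRCm38, Sema3d (12383385 to 12588948), Sema3a (13125414 to 13602565), Sema3e (14025276 to 14256689) and Sema3c (17574281 to 17730268) follow each other on the plus strand of chromosome 5, and their means ran 1.57, 0.653, 6.05 and 18.2 FPKM in that order. Their upstream windows of 250 bases held 4, 2, 7 and 39 CpG. These windows are not alike: those of Sema3c and Sema3a lie inside their GENCODE spans, and those of Sema3d and Sema3e lie upstream of theirs. That of Sema3c overlaps an annotated exon, whereas those of Sema3d, Sema3a and Sema3e overlap none. A relation of CpG number to level was not tested. Sema3b (107597674 to 107609229) and Sema3f (107681500 to 107710475) lie near each other on chromosome 9, minus strand, with means of 0.61 and 1.11 FPKM. No test of position was made.

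Class 4 members, transmembrane ligands that mostly bind group B plexins, lay closer together. Below Sema4d came Sema4g at 11.7 ± 0.885, Sema4a at 10.1 ± 1.37 and Sema4f at 9.21 ± 0.839 FPKM. The range of Sema4a overlapped both others, while Sema4g lay above Sema4f in every library without overlap. Sema4b stood at 5.63 ± 0.812 FPKM. Sema4c, a ligand of plexin B2, was the lowest at 3.99, 3.92 and 3.35 FPKM (3.75 ± 0.351). Exons of Sema4c overlap those of D430040D24Rik on the opposite strand, and whether counting used strand is not given in the sources used here.

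The other membrane-spanning ligands were mostly in the middle of the range. In class 5, whose members carry thrombospondin repeats, Sema5a was at 9.63, 7.59 and 8.0 FPKM (8.41 ± 1.08) and Sema5b at 5.16, 5.74 and 6.51 FPKM (5.80 ± 0.677), with no overlap. In class 6, Sema6d was at 14, 12 and 12.7 FPKM (12.9 ± 1.01). Sema6c was at 16.25, 10.18 and 9.85 FPKM (12.1 ± 3.60), with library 1 apart from the others. Sema6a, known with plexin A2 and plexin A4 from mossy fibre lamination, was the lowest of the class at 8.02, 6.42 and 6.84 FPKM (7.09 ± 0.830).

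Receptor genes covered a narrower range than the ligands. Neuropilins, short-tailed co-receptors that also bind VEGF, were both in the upper part: Nrp1 stood at 19.49, 16.97 and 13.41 FPKM (16.6 ± 3.05) and Nrp2 at 16.41, 9.69 and 11.01 FPKM (12.4 ± 3.56). Nrp1 was above Nrp2 in every library, by 1.39 ± 0.317 times, but the ranges overlapped.

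Within group A, the plexins that signal for class 3, class 5 and class 6 ligands, Plxna1 was the highest at 17.15, 12.36 and 19.62 FPKM (16.4 ± 3.69) and held 47.5% ± 6.32 of the group's sum. Plxna4 was at 8.30, 5.92 and 6.57 FPKM (6.93 ± 1.23) and Plxna2 at 8.70, 5.41 and 6.40 FPKM (6.84 ± 1.69). This pair could not be ordered, since their ratio lay on both sides of 1. Plxna3, on the X chromosome, was at 3.13, 5.70 and 3.46 FPKM (4.10 ± 1.40), with library 2 above the others. Exons of Plxna1 and Plxna4 overlap those of the opposite-strand genes Gm26811 and Plxna4os3, so reads of these partners could enter their values.

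Group B plexins, which recruit RhoA exchange factors, split into a high couple and a low member. Plxnb2 stood at 11.92, 11.85 and 14.20 FPKM (12.7 ± 1.34) and Plxnb1 at 8.93, 11.73 and 11.70 FPKM (10.8 ± 1.61). Plxnb3, known from oligodendrocytes, was at 2.31, 1.69 and 1.70 FPKM (1.90 ± 0.355), under every value of Plxnb1 and Plxnb2. Plxnd1, the receptor for Sema3e that endothelial cells and some neurons carry, was at 12.69, 8.47 and 7.97 FPKM (9.71 ± 2.59), and Plxnc1 at 6.29, 7.03 and 5.64 FPKM (6.32 ± 0.695). Exons of Plxnb1 overlap those of Gm7628 on the opposite strand, and exons of Plxnc1 those of Gm48718 on the same strand.

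Ordered by mean from Sema7a to Sema3g, most neighbours could not be told apart. Of the 30 steps between neighbouring genes, 27 had overlapping ranges over the 3 libraries. The 3 clear steps were Sema7a above Sema6b, Sema4d above Sema3c, and Sema4c above Plxnb3. No neighbouring genes between Sema3c and Sema4c were apart, although genes farther from each other in that run were, such as Sema3c and Sema4c themselves.

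Set beside each other, ligands outweighed receptors in sum but not in typical level. The 20 semaphorins summed to 221, 201 and 205 FPKM and the 11 receptors to 115, 96.8 and 102 FPKM. The ratio of these sums was 2.00 ± 0.0808, and semaphorins held 66.7% ± 0.902 of the total. The median semaphorin, however, stood at 0.912 ± 0.0766 times the median receptor. The sum counts more ligand genes and the 3 leading ones, while the 5 lowest genes of the family were all class 3 ligands. By class, the median of the gene means was 1.11 FPKM in class 3, 9.67 in class 4, 7.11 in class 5 and 12.5 in class 6, against 6.88 for group A plexins and 10.8 for group B.

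**Figure D2:**
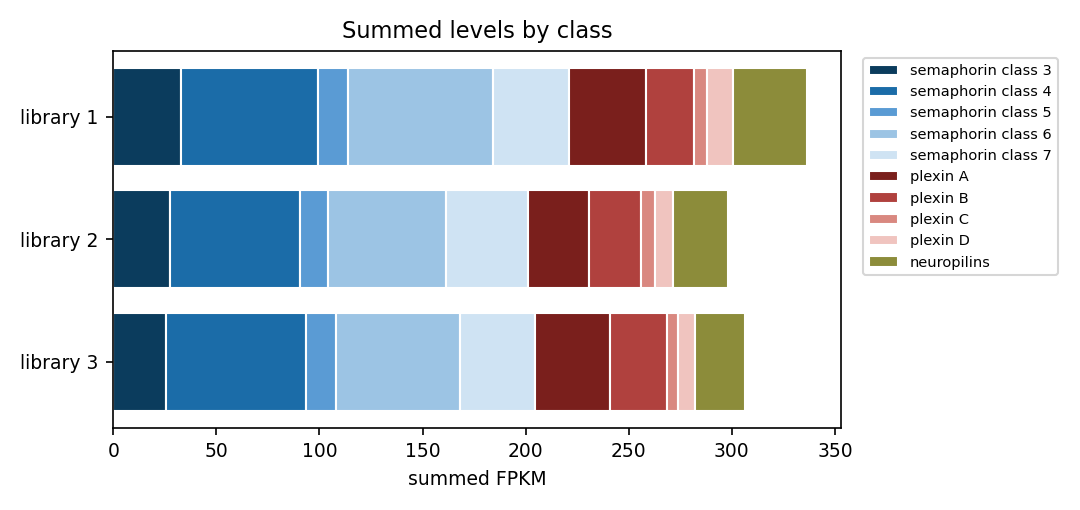
Summed FPKM of each class in each library, as stacked bars from 0, with semaphorin classes in blue, plexin groups in red and neuropilins in olive. In every library the blue part is the larger one, 66.7% ± 0.902 of the bar, and class 4 and class 6 take most of it.

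Against the whole table the family sat near the middle of the expressed genes. The 13337 genes whose mean reached 1 FPKM were each compared on the log2(FPKM + 1) scale with the median of those genes in the same library, which stood at 10.52, 10.33 and 10.17 FPKM, and a gene was called where limma's test put it more than 2-fold away (null of at most 1 log2 unit, two-sided, Benjamini-Hochberg adjusted p under 0.05 over all genes). Of the family 28 genes entered the test, and Sema3a, Sema3b and Sema3g did not. Higher calls went to 2 of the 28, while over all genes 26.0% were called higher. Lower calls went to 4 of the 28, while over all genes 22.3% were called lower. The median difference of the 28 was -0.13 log2 units, beside -0.01 for all genes. The family's shares were below the background in both directions, and no test of the list was made.

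The higher calls were Sema7a, 1.78 log2 units above the median gene (SE 0.088, limma adjusted p = 0.000668), and Sema6b, 1.46 above (SE 0.0884, limma adjusted p = 0.00478). Sema4d lay 1.21 above and was not called (limma adjusted p = 0.111). The lower calls were Sema3f at -2.50, Sema3d at -2.15, Plxnb3 at -1.97 and Sema4c at -1.26 log2 units (limma adjusted p = 0.00147, 0.000177, 0.000481 and 0.0387). All 6 had the same sign in 3 of 3 libraries. Without a filter on the mean, which lowers the median gene, Sema7a and Sema6b were still called higher, but none of the 4 lower calls remained. Without library 1, which holds its highest value, Sema3f lay at -2.80 (limma adjusted p = 0.000409). The call of Sema4c was lost when any library was left out (limma adjusted p between 0.0758 and 0.159) and with a variance trend (0.0831), and Plxna3, at -1.19, was called lower without library 2 (limma adjusted p = 0.0357). No neuropilin was called in either direction, but Nrp1, at 0.62, was called higher with a null of no difference (limma adjusted p = 0.00499) and without a filter on the mean (0.00337).

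Ligands and receptors known to bind each other, and receptors with their paralogs, were then compared as 20 pairs. For each receptor or paralog used as a reference (11 genes), limma was fitted to the differences of all tested genes from it, with the same 2-fold null and adjustment over all genes. Over the 11 references together, 44.9% of all differences were called. Among the 18 pairs in which both genes reached a mean of 1 FPKM, 5 were called. The reference gene's own spread enters every difference of its fit, so the spreads of the genes are not independent there and the p-values are less reliable than the per-library ratios.

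Ligand above receptor was called for 2 pairs. Sema7a exceeded Plxnc1 by 5.89, 5.69 and 6.49 times (2.41 log2 units, SE 0.133, limma adjusted p = 1.19e-05), the highest ratio of a ligand to a receptor among the 20 pairs. Sema6b exceeded Plxna4 by 3.83, 4.81 and 4.65 times (1.99 log2 units, SE 0.198, limma adjusted p = 4.67e-06). Sema4d was 2.39 ± 0.447 times Plxnb1 with no overlap of the ranges, but a distance of more than 2-fold on the log2(FPKM + 1) scale was not shown (limma adjusted p = 0.373).

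Receptor above ligand was called for Nrp2 over Sema3f and Plxnb2 over Sema4c. Nrp2 was 13.8 ± 5.43 times Sema3f (-2.70 log2 units for Sema3f minus Nrp2, limma adjusted p = 1.55e-08). Plxnb2 was 3.42 ± 0.712 times Sema4c (-1.52 for Sema4c minus Plxnb2, limma adjusted p = 0.00981). Untested because of the low ligand, Nrp1 was 30.7 ± 16.8 times Sema3a and Nrp2 was 22.5 ± 13 times Sema3b, and in both cases the ranges did not overlap.

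Other couples differed less. Sema3c was 1.11 ± 0.107 times Nrp1, Sema6a 1.03 ± 0.0598 times Plxna4, Sema5a 1.25 ± 0.148 times Plxna2, Sema5b 1.51 ± 0.453 times Plxna3, Sema6d 0.811 ± 0.162 times Plxna1 and Sema3e 0.641 ± 0.0997 times Plxnd1. None of these 6 was called, which does not show that the levels are equal. Sema3e lay below Plxnd1 in every library with no overlap of the ranges, and with a null of no difference it was called lower (limma adjusted p = 0.0428). Between paralogs, Plxnb3 was 0.183 ± 0.0658 times Plxnb1 and was called lower (-2.02 log2 units, limma adjusted p = 7.6e-06). Plxna1 was 2.38 ± 0.525 times Plxna4, Plxna3 0.622 ± 0.304 times Plxna4, Plxnb2 1.19 ± 0.164 times Plxnb1 and Sema6a 0.549 ± 0.0209 times Sema6d. In these 4 pairs the ranges per gene did not overlap, but none was called at the 2-fold null.

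**Figure D3:**
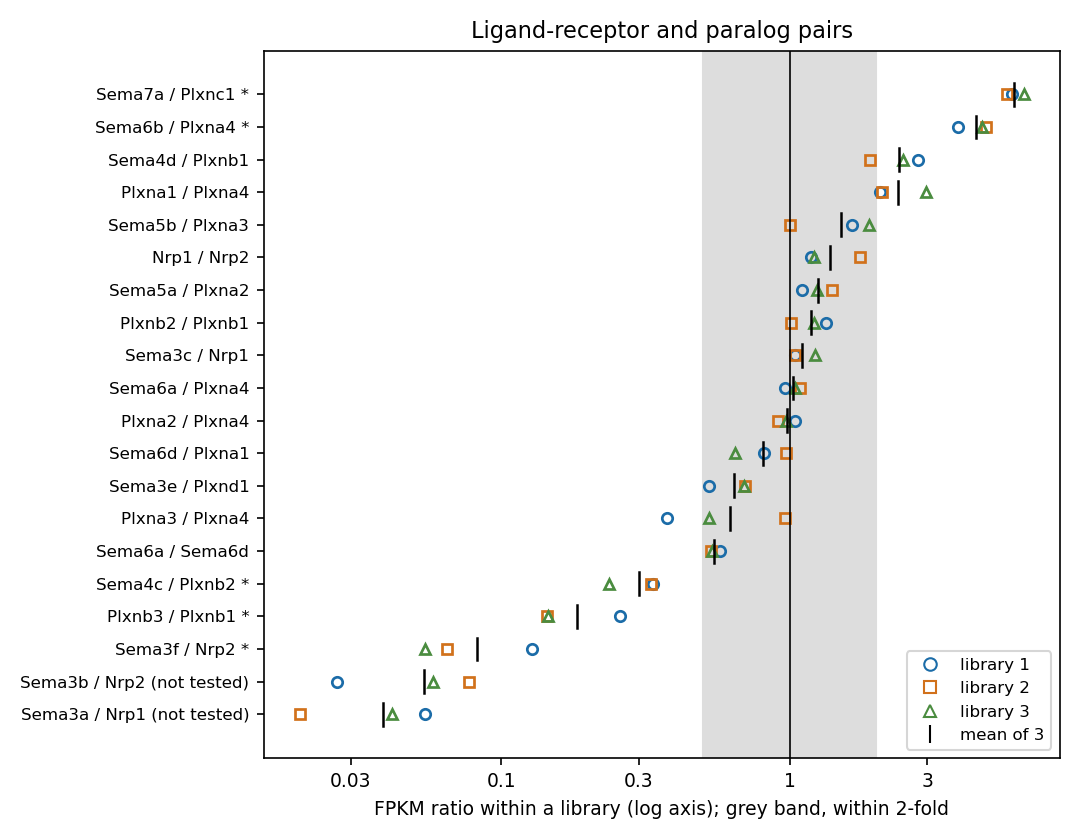
FPKM ratio of the first to the second gene of each pair on a log axis, 1 symbol per library, with a black tick at the mean of 3 and a grey band from 0.5 to 2. Stars mark the 5 pairs called by limma on the log2(FPKM + 1) scale, and the symbols of Sema3f / Nrp2, Sema3b / Nrp2 and Sema3a / Nrp1 lie farthest to the left.

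Library 1 held the highest value for many members. Among the 28 tested genes 16 (57.1%) were highest in library 1, beside 36.5% of all tested genes. With the untested genes it was 18 of 31. Most of the Eph, ephrin, Slit, Robo, netrin, Dcc and Unc5 genes were highest in library 1 too, and their sum was 381, 322 and 335 FPKM. The pattern is therefore not particular to the semaphorin family. Relative to the mean of libraries 2 and 3, the level in library 1 was 3.41 times for Sema3f, 2.36 times for Sema3a, 1.62 times for Sema6c, 1.59 times for Nrp2, 1.54 times for Plxnd1 and 1.47 times for Plxna2. On the other side, library 1 was at 0.633 times for Sema3b, 0.683 times for Plxna3 and 0.762 times for Plxnb1. The ratios of Sema3f, Sema3a and Sema3b rested on few fragments. These were about 24, 8 and 11 for Sema3f, 22, 8 and 19 for Sema3a, and 5, 10 and 12 for Sema3b. For the 3 leading genes it was close to 1, at 0.968 times for Sema7a, 0.970 times for Sema4d and 1.08 times for Sema6b. With 1 group of 3 libraries these are descriptions with no test.

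**Figure D4:**
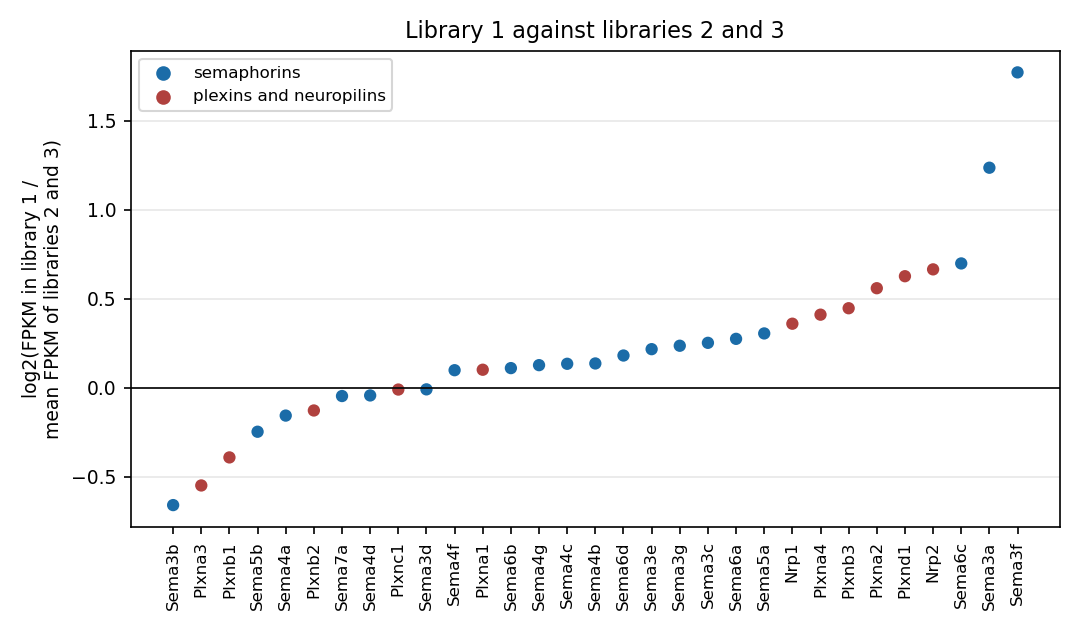
log2 ratio of the FPKM in library 1 to the mean FPKM of libraries 2 and 3, 1 point per gene in rising order, semaphorins in blue and plexins and neuropilins in red. Most points lie above 0, with Sema3f (3.41 times) and Sema3a (2.36 times), both resting on few fragments, at the right end.

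The median spread between libraries was larger over receptors than over ligands. The median SD of log2(FPKM + 1) was 0.257 over the 11 plexins and neuropilins and 0.143 over the 20 semaphorins, beside 0.175 over all tested genes, and this difference was not tested. The coefficient of variation exceeded the counting error estimated from fragment numbers in 27 of 31 genes, and exceeded it more than 2-fold in 14. It was below the counting error for Sema3b, Sema3d, Sema3g and Sema4c. The same comparison was not made over all genes, so these counts do not show whether the family differs from them. For Plxna1, at about 554, 449 and 1036 fragments, the coefficient was 22.5% against a counting error of 4.08%, and for Nrp2 28.8% against 5.40%.

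Marker genes of cell types and neighbouring tissues were set beside these differences between libraries. All 10 markers of hippocampal neurons, led by Neurod6 and Bok, were at 1 FPKM or more in every library, and their sum was 391, 381 and 383 FPKM. The 5 Cajal-Retzius markers, led by Reln and Ndnf, summed to 21.9, 10.7 and 15.1 FPKM, with 4 of 5 highest in library 1 and 2 of 5 at 1 FPKM or more throughout. Most of that sum was Reln, at 17.2, 7.36 and 9.86 FPKM. Ndnf was highest in library 3, and the remaining markers of the list had means of 1.00 FPKM or less. The 5 choroid plexus markers, led by Ttr and Folr1, summed to 398, 1084 and 1310 FPKM, and none was highest in library 1. Ttr alone, at 392, 1071 and 1296 FPKM, made up nearly all of that sum. General neuron markers (Snap25, Slc17a7) summed to 1957, 1748 and 1800 FPKM, with 5 of 7 highest in library 1. Astrocyte markers (Slc1a2, Slc1a3) summed to 1064, 1298 and 1259 FPKM, lowest in library 1. Blood markers (Hbb-bs, Hba-a1) summed to 679, 809 and 647 FPKM, with 4 of 4 highest in library 2. The other sums ranged from 87.7 to 91.1 FPKM for microglia (P2ry12, Csf1r) and 131 to 142 for endothelium and pericytes (Rgs5, Cldn5). They ranged from 56.5 to 70.0 for meninges (Dcn, Col1a2) and 16.5 to 20.3 for thalamus and striatum (Ppp1r1b, Lhx9). Mbp, a myelin gene of oligodendrocytes, stood at 673, 704 and 771 FPKM, rising from library 1 to library 3. Sema4d was also highest in library 3 but lowest in library 2 (24.89, 22.35 and 28.95 FPKM). Plxnb3, likewise known from oligodendrocytes, was highest in library 1 (2.31, 1.69 and 1.70 FPKM). No marker of these lists was listed at 0. The part of these markers in the library differences of Nrp2, Sema6c, Sema3f, Sema3b, Sema4d and Plxnb3 was not tested. In bulk tissue fewer cells of a type and less RNA per cell cannot be told apart.

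Several genes that carry the signal onward were far above the median gene. Of 35 signalling genes, 16 were called above the median gene and 4 below (26.0% and 22.3% over all genes), with a median difference of 0.71 log2 units. The highest were Cfl1, the actin-severing cofilin, at 697 FPKM, the GTPase genes Rac1 at 241 and Rhoa at 133, Crmp1, a phosphoprotein that relays Sema3a signals to microtubules, at 207, the kinase gene Fyn at 109 and Mical2, an actin-oxidising enzyme, at 101 FPKM, and all 6 were called higher. The lowest were the exchange factor gene Farp2 at 1.13, the kinase gene Fes at 1.23 and the GTPase gene Rhod at 1.59 FPKM, all called lower. Cfl1, Rac1 and Rhoa have near-identical copies that can share reads, which makes their values uncertain. The signalling list and the partner list that follows were chosen with earlier results of these data known, and neither was tested as a list.

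Co-receptors and other partners held calls in both directions. Of 18 genes, 14 were tested, 5 were called higher and 5 lower, beside 26.0% and 22.3% of all genes. Nrcam at 66.9, Tyrobp at 63.7, Itgb1 at 40.8, L1cam at 39.1 and Chl1 at 28.9 FPKM were the higher ones: Nrcam, L1cam and Chl1 encode adhesion molecules that join neuropilins, Itgb1 the integrin subunit used by Sema7a, and Tyrobp a microglial adaptor. Vegfa, the other ligand of neuropilins, was next at 18.2 FPKM and was not called. The call of Chl1 was lost without library 1 or library 3 (limma adjusted p = 0.136 and 0.0907). Erbb2, Flt4 and Timd2 were the lowest, at 0.687, 0.52 and 0.18 FPKM, Timd2 being listed at 0 in library 1.

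Compared with the other large guidance families, the semaphorin system had the higher median level. The 40 Eph, ephrin, Slit, Robo, netrin, Dcc and Unc5 genes summed to 346 ± 31.0 FPKM, the 31 semaphorins, plexins and neuropilins to 314 ± 20.2. Among tested genes the median of the means was 4.33 FPKM in those families (37 genes) and 9.46 FPKM here (28 genes). Of their 37 tested genes 4 were called higher and 16 lower, against 2 and 4 of 28 here and 26.0% and 22.3% of all genes. This is a description of counts, and the difference between the families was not tested.

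Upstream windows were found in the RefSeq table for 26 of the 31 genes, 37 windows in all. Plxna1, Plxna4, Sema3b, Sema3f and Sema6a had no entry. The median window held 13 CpG, beside 6 over all 32851 windows of the table. A GC box, GGGCGG or its complement CCGCCC on the other strand, occurred in 73.0% of the family's windows and in 32.7% of all windows. Both motifs contain a CpG, so these measures overlap. The background windows, of 27025 genes, were not filtered by level. A mean of 1 FPKM was reached by 90.3% of the family but by 33.9% of all genes in the FPKM values. No like set, such as expressed genes or other guidance genes, was compared, so the contrast is not shown to be particular to the family. Windows of several members, Sema3c, Nrp2 and Plxnb1 among them, overlap annotated exons. No GC box was found in any window of Sema3a, Sema3d, Sema4f, Sema5b and Plxnb3. The 3 windows of Sema4d, at 25.4 FPKM, held 1, 2 and 2 CpG. All 3 lie inside the GENCODE span of Sema4d (51685529 to 51793747 on chromosome 13, minus strand), downstream of its first start, and 2 of them overlap annotated exons, so the furthest upstream start of this gene was not among them. Only the letters of these windows were read, and binding was not measured.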

How the data were processed

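The authors deposited 1 table of FPKM values per gene, with a column for each of 3 libraries (per the file headers) whose number matches a sample title. The submitters' processing notes name Bowtie2 and the build GRCm38 (mm10). Which tool counted the fragments, on which annotation and with which strand setting, is not given in the sources used here. FPKM were used as deposited. Depth was estimated from steps of low FPKM in genes with 1 transcript of at least 800 bases: 92.9%, 92.2% and 90.6% of values up to 4 fragments came within 0.15 of a whole number, depth and effective length having been fitted to make that share as high as possible. Levels were tested as log2(FPKM + 1) with limma 3.58.1 in R 4.3.3 (treat), among genes with a mean of at least 1 FPKM. This test was checked on simulated data, with changed genes set farther from the median than Sema7a, Sema6b and Sema4c lay. The simulation covered neither distances like those of these genes nor the pair fits, so it does not bear on their calls. Alternatives were a pseudocount of 0.1, no filter, a null of no difference, each library left out, rescaling without mitochondrial, Bc1 and Rn7s genes, and a variance trend, the last chosen after seeing the data. Gene spans came from GENCODE M21, upstream sequences from RefSeq (GRCm38.p6). Members and lists were chosen with earlier results of these data known. Named genes were all 31 members, the 6 highest and 3 lowest of the signalling and partner lists, and the 2 highest of each marker list (of 1 list only the highest gene is given, its sum being not reported here), with other genes named only for their exon overlaps. Python 3.11.15 was used.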

Additional observations from a re-analysis of the deposited data

How the results depend on the processing

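No paired analysis was possible because the libraries form 1 group. Calls depended on the reference and the null. Without a filter on the mean, which lowers the median gene, 5955 genes were called higher and 6032 lower, 8 members were called higher, 9 guidance genes higher and 3 lower, and 2 signalling genes lower. With a null of no difference the counts were 5757 higher and 5739 lower over all genes, 7 higher and 13 lower among members, 8 signalling genes lower, 9 guidance genes higher and 10 pairs called. Other counts, and all counts under the remaining settings, stayed within 1.5 times. No filter turned the sign of 11 uncalled members, to 0.48 (Plxna2), 0.51 (Plxna4), 0.40 (Plxnc1), 0.93 (Plxnd1), 0.35 (Sema3e), 1.00 (Sema4a), 0.26 (Sema4b), 0.88 (Sema4f), 0.76 (Sema5a), 0.30 (Sema5b) and 0.55 (Sema6a) log2 units. It also ended the lower calls of Plxnb3 (-0.94), Sema3d (-1.11), Sema3f (-1.46), Sema4c (-0.22) and the signalling gene Rhod (-1.11). The 3 members called lower without a filter were therefore other genes, Sema3a, Sema3b and Sema3g, which the filter had left out. Leaving out a library turned values near 0: Plxnb1 ranged from -0.023 to 0.18, Sema4a from -0.13 to 0.024, Sema6c from -0.031 to 0.28, and the pair Plxna2 minus Plxna4 from -0.072 to 0.014, none of them called. Depth limits the class 3 genes under 1 FPKM, whose values rest on 5 to 22 fragments.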
